A study of Mus musculus with 24 samples.

Results

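The 39 genes described here carry fatty acids into the mitochondrion and oxidize them there, or answer to the fatty acid receptor PPAR alpha. They were chosen by function: fatty acid uptake, activation, the carnitine shuttle, beta oxidation and their regulators. Earlier results of these data were known when they were chosen, so their counts are not those of a blind choice. All 39 were found among the 22911 genes named on the array. All 39 also passed the filter on dim probes that left 17736 genes for testing. Kidney RNA of male Crl:CD1(ICR) mice was hybridised to 24 single-colour Agilent arrays in 3 groups. Sham mice (n = 6) received an intravenous vehicle and normal feed. DKD mice, so called for diabetic kidney disease (n = 9), received alloxan at 90 mg/kg 3 days before grouping and then the same feed. DKD+enarodustat mice (n = 9) received the same alloxan and feed with 0.01% by weight of enarodustat, and kidneys of all groups were taken 16 days after grouping. Alloxan kills insulin-producing beta cells, so the model is one of early insulin-deficient diabetes, and the 2 diabetic groups had been matched on blood glucose and body weight before feeding began. Enarodustat blocks the prolyl hydroxylases through which oxygen keeps hypoxia-inducible factor low, and the study asked what it does to the energy metabolism of the early diabetic kidney.

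The proximal tubule of the kidney lives largely on fatty acids. They enter through CD36 and the FATP carriers, are held by fatty acid binding proteins, are made into acyl-CoA by long-chain synthetases and reach the mitochondrial matrix as carnitine esters, where each turn of beta oxidation removes an acetyl unit. PPAR alpha, a nuclear receptor that pairs with RXR on direct repeats of the half-site AGGTCA, senses fatty acids and switches on genes at nearly every step of this route, and PGC-1 alpha, encoded by Ppargc1a, is its coactivator.

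The sequence that PPAR alpha with RXR is known to read is a pair of half-sites AGGTCA, one after the other, with 1 base of any kind (N) between them. It was searched on both strands, with up to 2 mismatches, in the 250 bases before the start of each gene in RefSeq's promoters for GRCm38.p6. Of 32851 promoters searched, 3.24% held such a match and 0.484% held one with at most 1 mismatch. Of the 39 genes, 34 had a promoter in that table, and Fabp1, Creb3l3, Cd36, Echs1, Etfa and Ucp3 held a match. A match is a run of letters and not a measured binding site. The promoters of Fabp1, Creb3l3 and Cd36 are shown because, of the 6 genes with a match, these 3 rose or fell in diabetes. The rises of Fabp1 and Creb3l3 come from dim probes and did not pass with normexp background correction. Each runs 5′ to 3′ in the direction of its gene and ends at the base before the gene's start, and capitals mark the match. Fabp1 lies at chr6:71199629-71199878 on the plus strand, with the match read on the opposite strand and 1 mismatch. Creb3l3, at chr10:81092592-81092841 on the minus strand, and Cd36, at chr5:17835897-17836146 on the minus strand, each hold a match with 2 mismatches, read on the gene's own strand in Creb3l3 and on the opposite strand in Cd36. A second Creb3l3 promoter in the table holds no match.
Fabp1: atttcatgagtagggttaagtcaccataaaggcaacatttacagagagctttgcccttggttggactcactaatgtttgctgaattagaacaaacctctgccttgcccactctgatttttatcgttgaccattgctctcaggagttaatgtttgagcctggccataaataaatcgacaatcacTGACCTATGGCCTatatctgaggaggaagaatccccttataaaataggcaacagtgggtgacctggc
Creb3l3: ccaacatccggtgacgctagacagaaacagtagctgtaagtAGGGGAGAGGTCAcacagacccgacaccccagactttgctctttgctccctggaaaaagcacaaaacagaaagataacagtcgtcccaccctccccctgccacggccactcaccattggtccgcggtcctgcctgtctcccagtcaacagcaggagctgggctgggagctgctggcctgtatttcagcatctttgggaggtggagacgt
Cd36: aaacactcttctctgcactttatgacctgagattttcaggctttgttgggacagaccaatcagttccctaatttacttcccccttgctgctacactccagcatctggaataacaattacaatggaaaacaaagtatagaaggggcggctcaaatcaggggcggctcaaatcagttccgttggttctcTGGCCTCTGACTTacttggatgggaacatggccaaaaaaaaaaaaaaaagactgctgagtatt
Counted back from the gene's start, the match spans positions −67 to −55 in Fabp1, −63 to −51 in Cd36 and −209 to −197 in Creb3l3. In diabetes Fabp1 and Creb3l3 rose, Cd36 fell, and Echs1, Etfa and Ucp3 did not pass the test.

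A level is the log2 of a probe's signal over the array's own 75th percentile, so 0 is a signal equal to that percentile. Levels are given as lowest, median and highest of a group, and levels of different genes are not compared. Differences are log2 differences ± SE from 1 limma fit over all arrays, where 1 is a doubling, and a gene rose or fell if its Benjamini-Hochberg adjusted p over all 17736 genes was under 0.05. Between 37716 and 44732 spots per array were well above background, and arrays of 1 group correlated at 0.964 to 0.991 across genes. Of 10 markers each of early and late proximal tubule, all 20 were measured above background. The markers Adipoq (white fat), Ucp1 (brown fat), Ckm and Myh4 (skeletal muscle) and Cyp11a1 (adrenal cortex) never stood well above background. Other markers on those lists passed the filter on dim probes: 6 of 10 for white fat and 6 of 8 for brown fat. So did 5 of 8 for skeletal muscle and 3 of 5 for adrenal cortex. Summed linear signals over the 75th percentile reached 6.2 in Sham, 3.48 in DKD and 6.43 in DKD+enarodustat for white fat. For brown fat they reached 15, 16.5 and 19.5. The part of such tissues in the RNA was not tested. On each of 3 slides there were 2 Sham arrays and 3 of either diabetic group. The slides have 2 rows: the first carried every Sham array and 6 DKD arrays, and the second carried the other 3 DKD arrays and every DKD+enarodustat array. In RNA of mixed tissue, fewer cells of a type and less RNA per cell cannot be told apart.

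Set against Sham, 13 of the 39 genes rose in DKD, 1 fell and 25 did not pass. Across all genes 11.6% passed in this comparison, 5.47% upward and 6.13% downward. The median difference of the 39 was 0.253, against −0.0123 for all genes tested. The genes that rose were Creb3l3, Fabp1, Angptl4, Acot1, Acaa2, Acot2, Fabp3, Cpt1b, Acsl1, Vnn1, Eci1, Acad11 and Hadha, and the gene that fell was Cd36. In 4 of the 39 (Fabp3, Cpt1b, Acaa2 and Cd36) the DKD and Sham arrays did not overlap, which held for 3.4% of all genes, 1.48% with DKD the higher and 1.92% with DKD the lower. With enarodustat in the feed, 0 of the 39 rose or fell against DKD by limma, where 0.716% of all genes passed. Of the 39, 3 had an unadjusted p under 0.05 (Cd36, Acadm and Acad11), and the lowest adjusted p was 0.204. Set against Sham, DKD+enarodustat kidneys had 8 genes that rose, 3 that fell and 28 that did not pass, beside 15.5% of all genes that passed (8.74% upward, 6.75% downward). Their median difference was 0.141, against −0.0161 for all genes, but with the row on the slide as a term it was −0.147, against −0.092. Fabp1 and Fabp3 did not overlap between those groups, as 4.94% of all genes did not, 2.91% with DKD+enarodustat the higher and 2.03% the lower. The comparisons share arrays (DKD in the first 2, Sham in the first and last, DKD+enarodustat in the last 2), so their values are set side by side only.

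**Figure D1:**
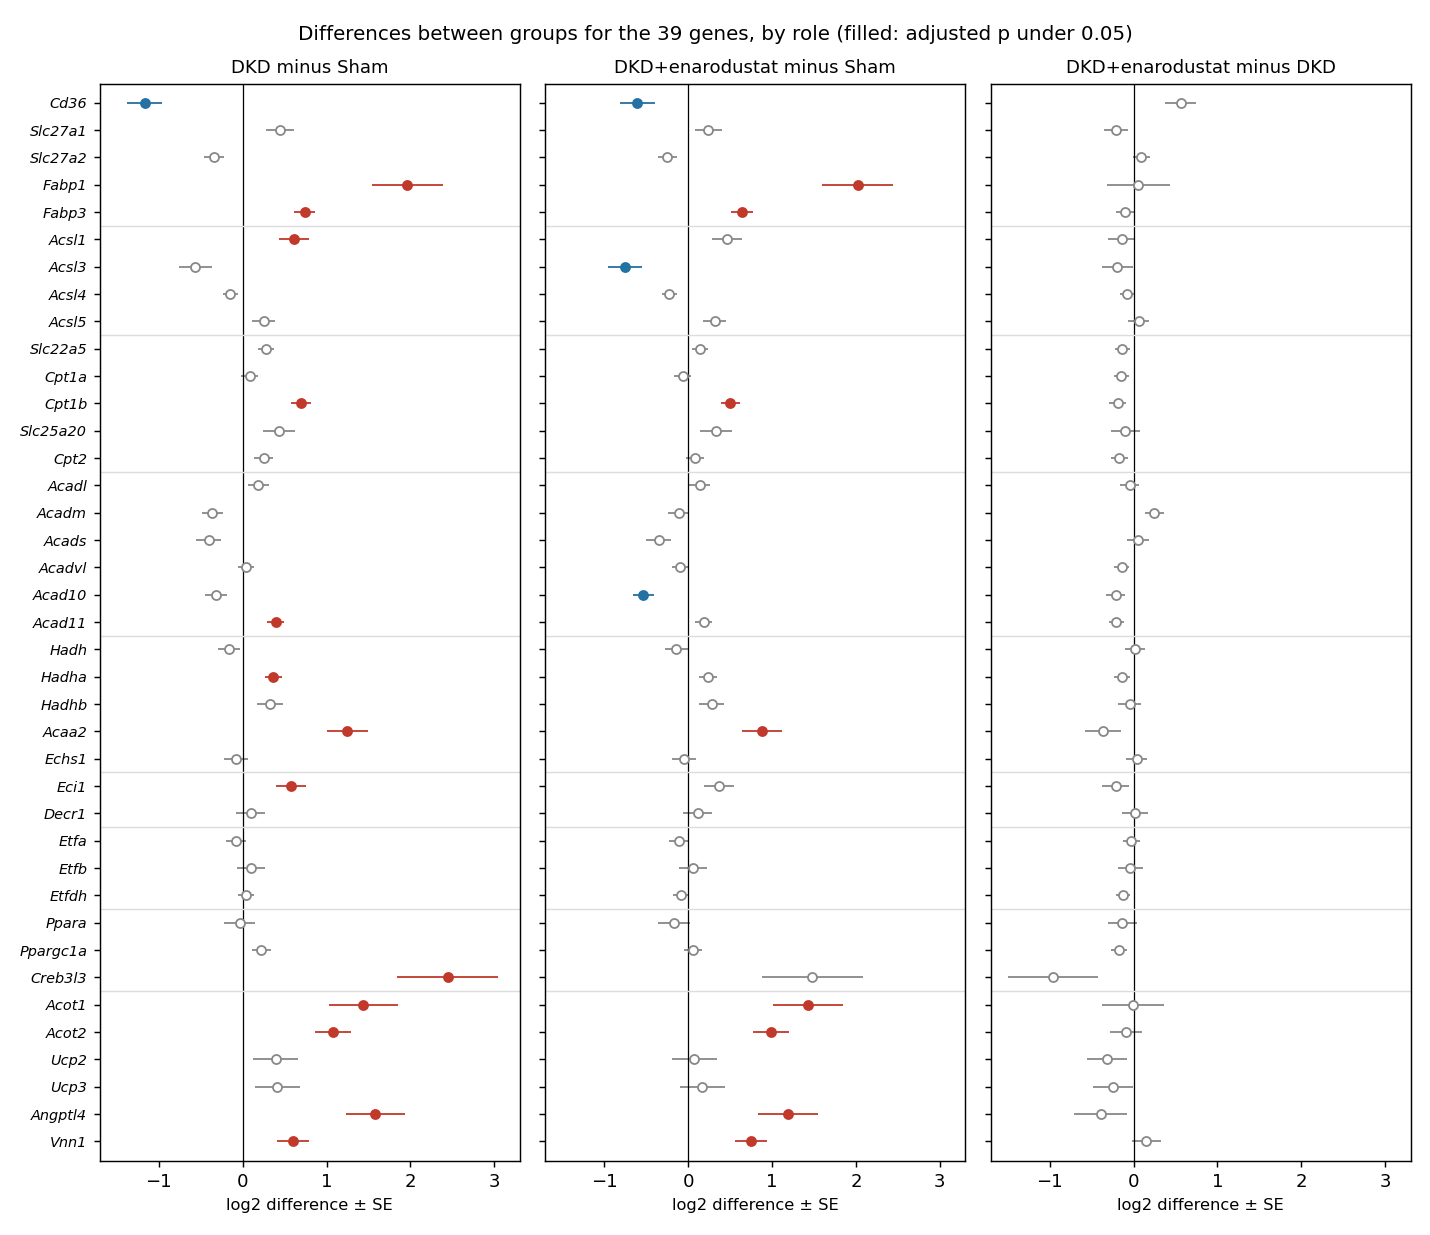
Log2 difference ± SE (x axis) of each of the 39 genes (y axis, separated by role with grey lines) in DKD minus Sham, DKD+enarodustat minus Sham and DKD+enarodustat minus DKD. Filled points passed an adjusted p of 0.05, red upward and blue downward. In the first panel 13 points are red and 1 is blue, and in the last none is filled.

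Of the 5 genes of fatty acid uptake and binding, 2 rose in DKD (Fabp1 and Fabp3), 1 fell (Cd36) and 2 did not pass. Cd36 encodes the scavenger receptor through which long-chain fatty acids enter cells. Its level was 3.38, 3.70 and 3.88 in Sham, 1.79, 2.29 and 3.03 in DKD, and 2.67, 2.84 and 3.70 in DKD+enarodustat. Every DKD array lay below every Sham array, and DKD+enarodustat arrays spread over the upper DKD and the Sham range. Cd36 fell by 1.17 ± 0.21 in DKD (adjusted p = 0.000673, limma), and within the 3 slides the differences were −1.22, −1.001 and −1.28. DKD+enarodustat minus DKD was 0.56 ± 0.19 (adjusted p = 0.204, 95% confidence interval 0.181 to 0.946), with 9 of 9 arrays above the DKD mean. DKD+enarodustat minus Sham was −0.60 ± 0.21 (adjusted p = 0.0497), a call that ended without any 1 of 14 arrays (adjusted p up to 0.109) and under quantile normalization (−0.53, adjusted p = 0.0611).

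Cd36 is also made by endothelial cells and macrophages. The summed linear signal of 7 endothelial markers was 28.1 to 31.6 times the 75th percentile in Sham, 27.0 to 33.5 in DKD and 33.9 to 41.8 in DKD+enarodustat. Of these 7, Plvap, Emcn and Cdh5 rose in DKD+enarodustat against DKD, by 0.42, 0.43 and 0.43, where 0.609% of all genes rose. These calls ended with the row on the slide as a term. The summed signal of 7 macrophage markers was 16.4 to 23.6 in Sham, 9.20 to 14.1 in DKD and 10.5 to 16.9 in DKD+enarodustat. In DKD 1 of the 7 fell, beside 6.13% of all genes, and 6 did not pass, with differences up to 0.272. The one that fell was Csf1r, by 0.89 ± 0.14 (adjusted p = 0.000264; −0.503 and 0.00206 with the mean over its probes). The part of either cell type in the Cd36 values was not tested.

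Fabp1, the liver-type fatty acid binding protein, is a textbook PPAR alpha target. Its level was −5.56, −5.10 and −4.20 in Sham, −4.29, −3.64 and −0.89 in DKD and −3.78, −3.08 and −1.86 in DKD+enarodustat. The lowest 2 DKD arrays lay just below the highest Sham array, and every DKD+enarodustat array lay above it. Fabp1 rose in DKD by 1.96 ± 0.42 (adjusted p = 0.00343) and in DKD+enarodustat against Sham by 2.02 ± 0.42 (adjusted p = 0.00226), while DKD+enarodustat minus DKD was 0.059 ± 0.378 (95% confidence interval −0.722 to 0.839). Fabp1 is dim on these arrays: 5 of 6 Sham signals stood well above background. With background correction by normexp the differences were 0.49 (adjusted p = 0.0512) and 0.41 (adjusted p = 0.0914), and neither passed.

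Fabp3, the heart-type binding protein, had levels of 4.30, 4.58 and 4.79 in Sham, 4.90, 5.33 and 5.69 in DKD and 4.84, 5.17 and 5.65 in DKD+enarodustat. All diabetic arrays, fed the drug or not, lay above all Sham arrays. It rose by 0.74 ± 0.13 in DKD (adjusted p = 0.000492) and by 0.64 ± 0.13 in DKD+enarodustat against Sham (adjusted p = 0.00145), and a second Fabp3 probe differed by 0.80 between DKD and Sham. The FATP carriers did not pass: Slc27a1 differed by 0.45 ± 0.16 in DKD (adjusted p = 0.0792) and Slc27a2, the main form of proximal tubule and liver, by −0.34 ± 0.12 (adjusted p = 0.0588). Slc27a2 passed as lower with slide as a fixed or random block (adjusted p = 0.0494 and 0.0482) and with the row term (−0.433, adjusted p = 0.0213).

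The 4 long-chain acyl-CoA synthetases, which make fatty acids ready for oxidation or for lipid synthesis, differed in direction. Acsl1, the form linked to oxidation and to PPAR alpha, had levels of 3.59, 3.96 and 4.04 in Sham, 3.87, 4.47 and 5.05 in DKD and 3.85, 4.35 and 4.84 in DKD+enarodustat. Its upper arrays in both diabetic groups lay above Sham and its lower ones within it. Acsl1 rose by 0.61 ± 0.18 in DKD (adjusted p = 0.0275), but the call ended without Sham 3, Sham 4 or DKD 2 (adjusted p up to 0.0741) and with the mean over its probes (0.51, adjusted p = 0.0731). Acsl3, which is tied to lipid droplet growth, had levels of −1.21, −0.61 and −0.093 in Sham, −1.74, −1.30 and −0.48 in DKD and −2.14, −1.33 and −0.78 in DKD+enarodustat. It fell in DKD+enarodustat against Sham by 0.75 ± 0.20 (adjusted p = 0.0130), and in DKD it differed by −0.56 ± 0.20 (adjusted p = 0.0733). In DKD it passed as lower with slide as a fixed or random block (adjusted p = 0.0187 and 0.0427) and with the mean over its probes (−0.734, adjusted p = 0.0128). Acsl4, which favours arachidonic acid, and Acsl5 differed by −0.15 and 0.25 in DKD and did not pass.

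Of the 5 genes of carnitine uptake and the carnitine shuttle, 1 rose. Cpt1b, the muscle-type carnitine palmitoyltransferase 1 of the outer mitochondrial membrane, had levels of −1.0, −0.90 and −0.64 in Sham, −0.40, −0.28 and 0.30 in DKD and −0.73, −0.26 and 0.017 in DKD+enarodustat. No DKD array overlapped with Sham, and in DKD+enarodustat the lowest 2 arrays reached into the Sham range. Cpt1b rose by 0.69 ± 0.12 in DKD (adjusted p = 0.000450) and by 0.50 ± 0.12 in DKD+enarodustat against Sham (adjusted p = 0.00516). Skeletal muscle markers, given because Cpt1b is a muscle-type gene, had summed signals of 0.540 to 0.679 in Sham, 0.466 to 0.814 in DKD and 0.470 to 0.653 in DKD+enarodustat, and 0 of 5 tested passed by limma in DKD against Sham, where 0 had an unadjusted p under 0.05.

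Cpt1a, the liver-type form, does the same rate-limiting step and is the better known PPAR alpha target. Its level was 4.33, 4.54 and 4.84 in Sham, 4.46, 4.65 and 4.86 in DKD and 4.11, 4.51 and 4.80 in DKD+enarodustat, so the groups overlapped throughout. It differed by 0.084 ± 0.101 in DKD (adjusted p = 0.672) and by −0.15 ± 0.09 in DKD+enarodustat against DKD (adjusted p = 0.619, 95% confidence interval −0.331 to 0.0406). The carnitine transporter Slc22a5, the carnitine-acylcarnitine translocase Slc25a20 and the inner membrane transferase Cpt2 differed by 0.28, 0.43 and 0.25 in DKD and did not pass. Slc22a5 passed as higher in 5 alternatives, among them quantile normalization (0.381, adjusted p = 0.00873), normexp (0.380, 0.00593) and the mean over probes (0.311, 0.0242). For Slc25a20, DKD 4 lay at −1.42, below the next DKD array at −0.59, and without it the difference was 0.57 (adjusted p = 0.0143).

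**Figure D2:**
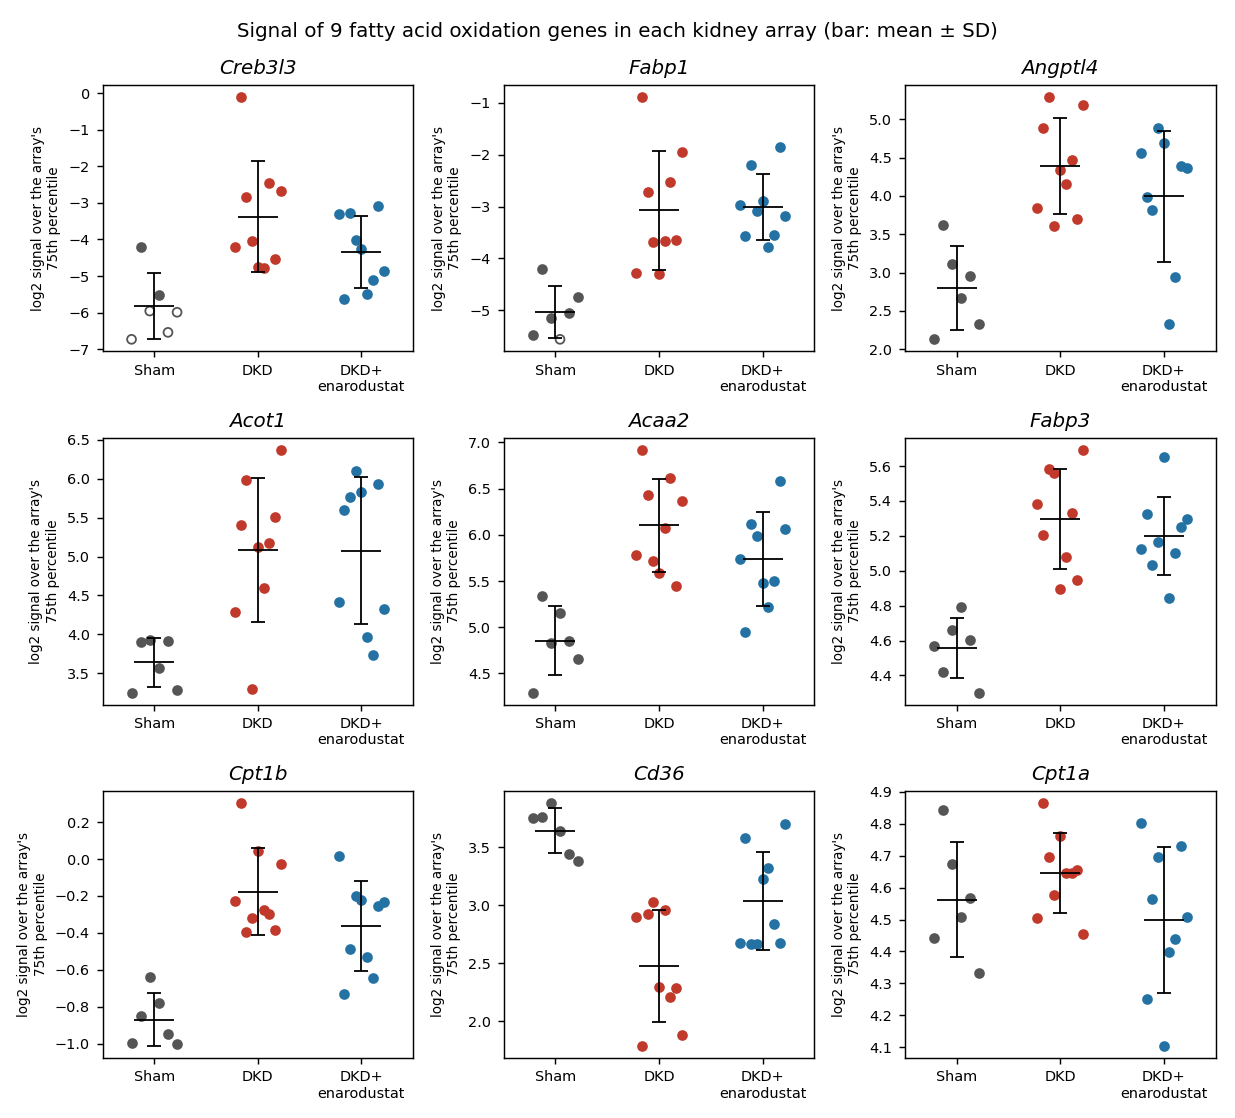
Level of 9 of the genes (y axis, log2 signal over the array's 75th percentile) in each Sham (n = 6), DKD (n = 9) and DKD+enarodustat (n = 9) array, with mean ± SD as bars and open points where the probe was not well above background. Fabp3, Cpt1b and Acaa2 lie wholly above Sham in DKD and Cd36 wholly below it, Cpt1a overlaps in all groups, and DKD 2 stands at the top for Creb3l3 (−0.11) and Fabp1 (−0.89).

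The acyl-CoA dehydrogenases take the first oxidation step, each for a range of chain lengths. Of 6, 1 rose in DKD. Acad11, which acts on very long chains, had levels of 4.33, 4.51 and 4.85 in Sham, 4.62, 5.00 and 5.23 in DKD and 4.53, 4.78 and 5.00 in DKD+enarodustat. It rose by 0.39 ± 0.10 in DKD (adjusted p = 0.0113), where its second probe differed by 0.446. With the drug it differed from DKD by −0.21 ± 0.09 (adjusted p = 0.388). The medium-chain enzyme Acadm and the short-chain enzyme Acads lay below Sham by 0.36 ± 0.12 (adjusted p = 0.0611) and 0.40 ± 0.15 (adjusted p = 0.0852), with 9 of 9 DKD arrays below the Sham mean for each, and neither passed. With slide as a fixed block Acadm passed (adjusted p = 0.0486), and in a fit with the row on the slide as a term both did (adjusted p = 0.0180 and 0.0245). Acadm also passed as lower with the percentile over bright probes (−0.318, adjusted p = 0.0383). With normexp Acads passed as lower in DKD (−0.308, adjusted p = 0.0406) and in DKD+enarodustat against Sham (−0.287, adjusted p = 0.0482). Acadl and Acadvl, the long-chain and very-long-chain enzymes, differed by 0.19 and 0.046. Acad10 had levels of 2.33, 2.61 and 3.04 in Sham, 1.86, 2.28 and 2.74 in DKD and 1.71, 2.16 and 2.39 in DKD+enarodustat. It fell in DKD+enarodustat against Sham by 0.53 ± 0.13 (adjusted p = 0.00691), with slide differences of −0.15, −0.99 and −0.45, and in DKD it differed by −0.32 ± 0.13 (adjusted p = 0.115).

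Among the 5 genes of the later steps, Acaa2 had the largest change. Acaa2 encodes the mitochondrial thiolase that ends each turn by releasing acetyl-CoA. Its level was 4.29, 4.84 and 5.34 in Sham, 5.45, 6.07 and 6.92 in DKD and 4.95, 5.74 and 6.59 in DKD+enarodustat. All 9 DKD arrays and 7 of 9 treated ones lay above the highest Sham array. It rose by 1.25 ± 0.24 in DKD (adjusted p = 0.00142), a 2.38-fold change, and by 0.88 ± 0.24 in DKD+enarodustat against Sham (adjusted p = 0.0149). Hadha, the alpha subunit of the trifunctional protein, had levels of 0.64, 0.91 and 1.08 in Sham, 0.95, 1.25 and 1.67 in DKD and 0.82, 1.14 and 1.46 in DKD+enarodustat. It rose by 0.37 ± 0.10 in DKD (adjusted p = 0.0235), a call that ended without Sham 6 (adjusted p = 0.0643). Its partner subunit Hadhb differed by 0.33 ± 0.15 (adjusted p = 0.174), but passed as higher under quantile normalization (0.392, adjusted p = 0.00241), the percentile over bright probes (0.373, 0.0469) and normexp (0.393, 0.000424). The hydratase Echs1 and the dehydrogenase Hadh differed by −0.082 and −0.16.

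Eci1, the isomerase that lets unsaturated fatty acids enter the spiral, had levels of 4.45, 4.62 and 4.96 in Sham, 4.64, 5.30 and 5.81 in DKD and 4.39, 5.10 and 5.58 in DKD+enarodustat. It rose by 0.58 ± 0.18 in DKD (adjusted p = 0.0385), and the call ended without any 1 of 9 arrays (adjusted p up to 0.0833). The reductase Decr1, which also serves unsaturated chains, differed by 0.095. The 3 genes that pass electrons from the dehydrogenases to ubiquinone, Etfa, Etfb and Etfdh, differed by −0.079, 0.099 and 0.042 in DKD and none passed in any comparison by limma, with no unadjusted p under 0.05 in DKD against Sham. Under quantile normalization Etfb passed as higher in DKD (0.255, adjusted p = 0.0302).

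The regulators did not move together. Ppara itself had levels of 3.22, 3.53 and 3.76 in Sham, 2.84, 3.50 and 3.83 in DKD and 2.54, 3.43 and 4.03 in DKD+enarodustat. It differed by −0.037 ± 0.189 in DKD (adjusted p = 0.937), a sign that turned under quantile normalization (0.068), under the percentile over bright probes (0.0076) and with normexp (0.0399), and its second probe gave 0.0398. Ppargc1a had levels of 1.75, 1.94 and 2.06 in Sham, 1.85, 2.18 and 2.41 in DKD and 1.51, 2.07 and 2.24 in DKD+enarodustat, and differed by 0.23 ± 0.11 in DKD (adjusted p = 0.195). Creb3l3 encodes CREBH, a membrane-held transcription factor that is cut free in fasting and works with PPAR alpha in liver. Its level was −6.73, −5.97 and −4.20 in Sham, −4.77, −4.05 and −0.11 in DKD and −5.64, −4.27 and −3.08 in DKD+enarodustat. The probe was well above background on 2 of 6 Sham arrays and on 9 of 9 arrays of each diabetic group. Creb3l3 rose by 2.44 ± 0.60 in DKD (adjusted p = 0.00916), with slide differences of 3.08, 1.21 and 3.04. With normexp the difference was 0.60 (adjusted p = 0.0988), so the size of this change rests on how background is treated. DKD+enarodustat minus DKD was −0.96 ± 0.54 (adjusted p = 0.554, 95% confidence interval −2.07 to 0.149), and DKD+enarodustat minus Sham was 1.48 ± 0.60 (adjusted p = 0.0972), which passed without DKD 2 (adjusted p = 0.0374).

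The thioesterases split acyl-CoA back into fatty acid and CoA. Acot1, of the cytosol, had levels of 3.26, 3.73 and 3.93 in Sham, 3.296, 5.17 and 6.36 in DKD and 3.74, 5.60 and 6.10 in DKD+enarodustat. DKD 4 lay within the Sham range and the other 8 DKD arrays above it. Acot1 rose by 1.44 ± 0.41 in DKD (adjusted p = 0.0245), a call that ended without Sham 1 or Sham 6 (adjusted p up to 0.0563), and by 1.43 ± 0.41 in DKD+enarodustat against Sham (adjusted p = 0.0210). Acot2, its mitochondrial neighbour on chromosome 12, had levels of 0.52, 0.64 and 0.83 in Sham, 0.69, 1.83 and 2.35 in DKD and 0.71, 1.65 and 2.34 in DKD+enarodustat, and rose by 1.08 ± 0.21 (adjusted p = 0.00185) and 0.98 ± 0.21 (adjusted p = 0.00319). Acot1 and Acot2 are near-identical copies, and whether each probe tells them apart was not tested.

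Angptl4, a secreted inhibitor of lipoprotein lipase and a target of all PPARs, had levels of 2.13, 2.81 and 3.63 in Sham, 3.61, 4.34 and 5.29 in DKD and 2.33, 4.36 and 4.88 in DKD+enarodustat. In DKD the lowest array stood just below the highest Sham array, and 2 treated arrays (DKD+enarodustat 6 and 7) lay within Sham. It rose by 1.58 ± 0.35 in DKD (adjusted p = 0.00460) and by 1.19 ± 0.35 in DKD+enarodustat against Sham (adjusted p = 0.0239), the latter not passing without Sham 1 or Sham 6 (adjusted p up to 0.0632). Vnn1, the pantetheinase that returns the CoA precursor pantothenate, had levels of 1.29, 1.37 and 1.70 in Sham, 1.22, 1.91 and 2.67 in DKD and 1.45, 2.23 and 2.59 in DKD+enarodustat. It rose by 0.75 ± 0.19 in DKD+enarodustat against Sham (adjusted p = 0.00964) and by 0.60 ± 0.19 in DKD (adjusted p = 0.0438), the latter ending without any 1 of 11 arrays (adjusted p up to 0.0825). The uncoupling proteins Ucp2 and Ucp3 differed by 0.40 and 0.41 in DKD and did not pass.

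Between the 2 diabetic groups the drug-fed mice gave lower estimates for 29 of the 39 genes and higher ones for 10, with a median of −0.126 against 0.00477 for all genes, and no gene passed. With the row term the medians were −0.257 and −0.0444. The intervals show what sizes these arrays leave. For the thiolase Acaa2 the difference was −0.36 ± 0.22 (95% confidence interval −0.81 to 0.0809), and for Angptl4 −0.39 ± 0.32 (−1.05 to 0.262). Acot1 differed by −0.0078 ± 0.371 (−0.774 to 0.759), from differences of 0.033, 0.961 and −1.02 on the 3 slides. The dehydrogenase Acadm differed by 0.25 ± 0.11 (0.0197 to 0.48, adjusted p = 0.410), the opposite sign to its difference in DKD against Sham, with which it shares the DKD arrays.

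In the fit with the row on the slide as a term, none of the 11 genes called in DKD+enarodustat against Sham passed an adjusted p of 0.05 by limma. Of the 11, 7 differences shrank, to 0.19 in Vnn1 (adjusted p = 0.706), 0.41 in Fabp3 (0.227), 0.46 in Angptl4 (0.640), 0.59 in Acot1 (0.606), 0.60 in Acaa2 (0.360), 0.68 in Acot2 (0.247) and 1.58 in Fabp1 (0.182). The other 4 grew, to 0.59 in Cpt1b (adjusted p = 0.0803), −0.615 in Acad10 (0.0976), −0.77 in Cd36 (0.184) and −0.88 in Acsl3 (0.125). Row and group can be told apart in that comparison only through the DKD arrays, which lie in both rows. In DKD against Sham the same fit left 8 risers and 4 that fell. The rises that ended were those of Acot1 (1.16, adjusted p = 0.0893), Acsl1 (0.448, 0.111), Eci1 (0.407, 0.151), Hadha (0.286, 0.0901) and Vnn1 (0.41, 0.169). Acadm, Acads and Slc27a2 joined Cd36 among those that fell, and the 6 DKD arrays of the first row set against Sham alone gave 8 and 4 too. All 14 genes called in DKD kept their sign within each slide, and for 12 of the 13 risers the difference was smallest on slide 2. The calls came from these same arrays, so the kept signs are no separate test. Neither count was made over all genes.

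**Figure D3:**
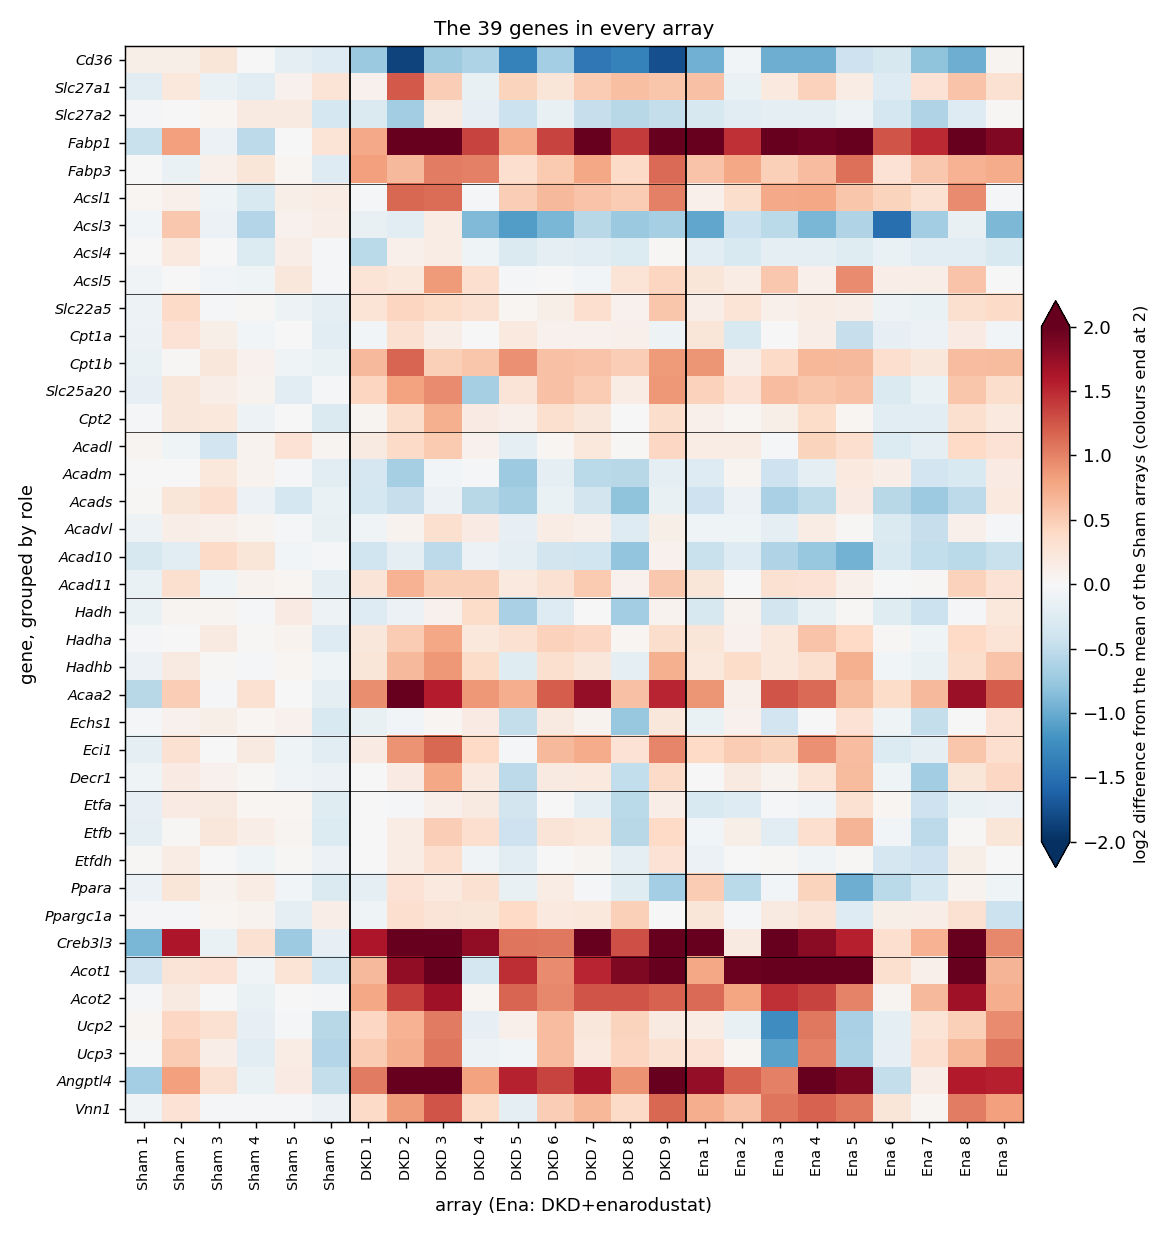
Log2 difference of each of the 39 genes (rows, by role) from the mean of the Sham arrays, in each of the 24 arrays (columns), red above and blue below, with colours ending at 2. The rows of Fabp1, Acaa2, Creb3l3, Acot1, Acot2 and Angptl4 are mostly red and that of Cd36 mostly blue in both diabetic groups, with exceptions such as Acot1 in DKD 4 and Cd36 in DKD+enarodustat 9. The medians over the 39 genes of DKD 5 (−0.0403) and of DKD+enarodustat 6 (−0.102) and 7 (−0.127) lie below 0.

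Arrays differed from one another within the groups. The median difference of the 39 genes from the Sham mean was 0.5 in DKD 3, 0.388 in DKD 9 and 0.384 in DKD 2, and −0.0403 in DKD 5. Among treated mice it ran from −0.127 in DKD+enarodustat 7 to 0.346 in DKD+enarodustat 8. In Sham it ran from −0.17 to 0.176. DKD 3 and DKD 9 lay in the second row. The 75th percentile signal, which is subtracted, was 220.6 in DKD 3, 291.1 in DKD 5 and 388.1 in DKD+enarodustat 7. In DKD+enarodustat 6, with a median of −0.102, it was 206.9. The part of row and scaling in these medians was not tested, and no such median was taken over all genes. The median SD of the 39 was 0.187 in Sham, 0.331 in DKD and 0.292 in DKD+enarodustat, and the SD was larger in DKD than in Sham for 35 of 39 genes (89.7%). Over all genes tested the median SDs were 0.199, 0.309 and 0.282, and 77.5% had the larger SD in DKD.

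Within a group the levels of some of these genes were correlated across mice. The relations were picked after the values were seen, so their p-values are no separate test. The partners of Creb3l3 were the other genes called in DKD against Sham on these same arrays. In all, 31 relations were computed with exact permutation tests over the pairings, two-sided, adjusted over the 31. How many of all genes reach such coefficients was not counted. Creb3l3 and Fabp1 were related among DKD mice (n = 9, r = 0.945, rho = 0.800, exact p = 0.000907 and 0.0138, adjusted 0.00589 and 0.0429) and among treated mice (n = 9, r = 0.889, rho = 0.933, exact p = 0.000576 and 0.000750, adjusted 0.00589 and 0.00775). Without the 2 mice farthest from the median of Creb3l3, r was 0.880 and 0.835. Both probes are dim, and with normexp r was 0.946 and 0.755 (adjusted exact p = 0.0106 and 0.0450). DKD 2 was highest for both genes, with DKD 3, DKD 7 and DKD 9 next in both. Slides held 3 arrays of each diabetic group, too few for a relation within a slide, and with slide means removed r was 0.955 and 0.900. Creb3l3 and Acaa2 gave r = 0.895 in DKD (adjusted exact p = 0.00589) and 0.797 with the drug (adjusted exact p = 0.0338), the second not holding under quantile normalization (r = 0.640, adjusted exact p = 0.118). Creb3l3 and Acad11 gave r = 0.864 in DKD, but 0.169 under quantile normalization and 0.258 with normexp, so this relation depends on the scaling. Creb3l3 and Acot2 gave r = 0.867 with the drug (adjusted exact p = 0.00859), but 0.409 in DKD, which did not pass (adjusted exact p = 0.289). Among relations of Creb3l3 that passed in neither diabetic group were those with Fabp3 (r = 0.337 in DKD and 0.0572 with the drug) and Acot1 (0.401 and 0.477). Creb3l3 and Cd36 gave negative coefficients (r = −0.606 in DKD and −0.766 with the drug, adjusted exact p = 0.111 and 0.0577), and neither passed. With the drug the relation passed under quantile normalization (r = −0.804, adjusted exact p = 0.0391), the percentile over bright probes (−0.840, 0.0240) and normexp (−0.799, 0.0450).

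Ucp2 and Ucp3, which lie next to each other on chromosome 7 with no gene between them in RefSeq's table, varied together across mice in every group. Pearson's r was 0.946 in Sham (adjusted exact p = 0.0279, n = 6), 0.976 in DKD and 0.993 with the drug (adjusted exact p = 0.000214 in each), and rho was 0.829, 0.967 and 0.983 (adjusted exact p = 0.122, 0.00256 and 0.00154). Their levels spanned −0.61 to 1.68 and −0.30 to 1.85 in DKD+enarodustat, the widest span of the 3 groups for each. Leaving out the 2 mice farthest from the median of Ucp2 gave r = 0.716, 0.944 and 0.994. Whether each probe of Ucp2 and Ucp3 reads only its own gene was not tested. Acot1 and Acot2 gave r = 0.880 in DKD (rho = 0.817, adjusted exact p = 0.00859 and 0.0371) and 0.746 with the drug (rho = 0.833, adjusted exact p = 0.0542 and 0.0320). With the drug r passed under quantile normalization (0.787, adjusted exact p = 0.0369) and normexp (0.781, 0.0450), not under the percentile over bright probes (0.701, 0.0628).

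**Figure D4:**
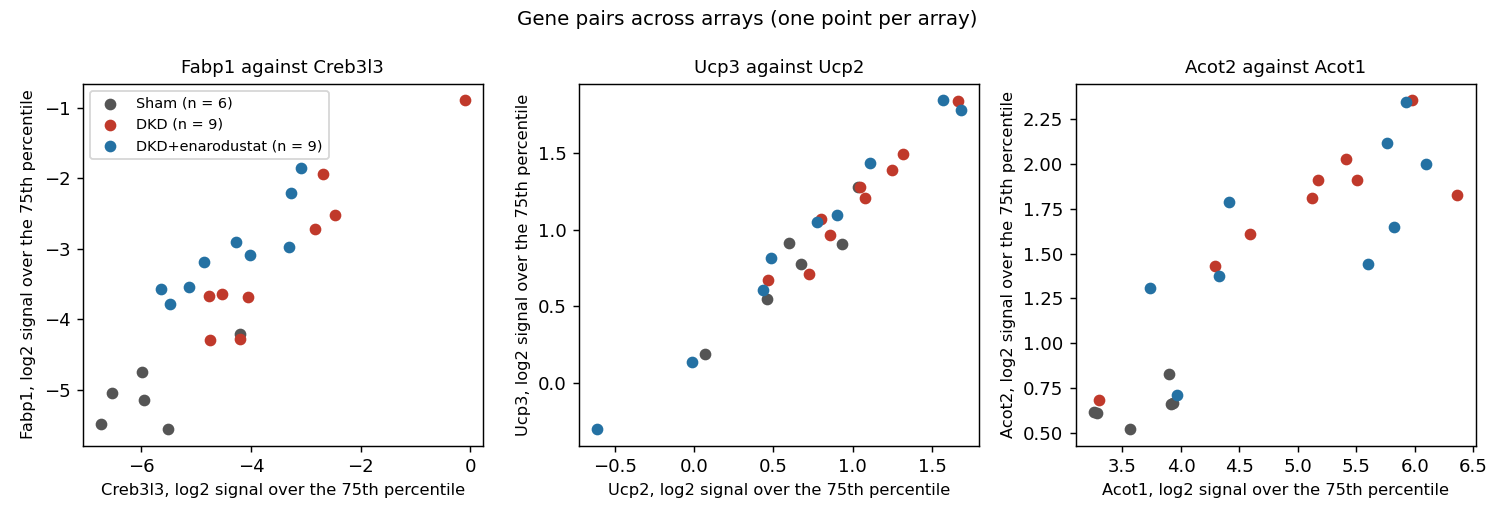
Levels of Fabp1 against Creb3l3, Ucp3 against Ucp2 and Acot2 against Acot1 (both axes log2 signal over the array's 75th percentile), 1 point per array, coloured by group. The diabetic mice with the most Creb3l3 also had the most Fabp1 (r = 0.945 in DKD and 0.889 in DKD+enarodustat), and the points of Ucp2 and Ucp3 fall close to a line in all groups.

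Other genes of the pathway were read from lists drawn up by function, also with earlier results of these data known. Of 27 other PPAR alpha targets tested, 10 rose in DKD, 2 fell and 15 did not pass, beside 5.47% and 6.13% of all genes. Cyp4a10, which hydroxylates the far end of fatty acids, rose by 2.22 ± 0.45 (adjusted p = 0.00207). Its relative Cyp4a14 rose by 2.75 ± 0.87 (adjusted p = 0.0410), not passing with normexp (1.15, adjusted p = 0.111) or without any 1 of 10 arrays (adjusted p up to 0.0956). Acot3, a thioesterase of peroxisomes, rose by 2.03 ± 0.48 (adjusted p = 0.00718). Lpl, the lipoprotein lipase that frees fatty acids from circulating triglyceride and that Angptl4 inhibits, fell by 2.19 ± 0.31 (adjusted p = 9.70e-05), from 5.27 to 5.77 in Sham to 2.73 to 4.40 in DKD. In DKD+enarodustat against Sham 6 rose and 2 fell, beside 8.74% and 6.75% of all genes. There Cyp4a10 gave 1.90, Pdk4, which holds back pyruvate oxidation, 1.70, Cyp4a31, another hydroxylase, 1.39 and Lpl −1.61. Cyp4a14, at 2.38 and adjusted p = 0.0643, did not pass. With the row as a term Cyp4a10, Pdk4, Cyp4a31 and Lpl gave 1.14, 0.765, 0.782 and −1.45 (adjusted p = 0.342, 0.372, 0.392 and 0.103). Against DKD, 1 rose with the drug, where 0.609% of all genes rose. It was Fabp4, a binding protein of fat cells, macrophages and capillary endothelium. Its level was 2.33 to 2.81 in Sham, 3.04 to 3.52 in DKD and 3.56 to 4.06 in DKD+enarodustat, 3 ranges with no overlap. Of all genes, 1.48% lay wholly higher in DKD than in Sham and 0.135% wholly higher in DKD+enarodustat than in DKD. The rise of Fabp4 over DKD was 0.52 ± 0.09 (adjusted p = 0.00297), and 0.433 (adjusted p = 0.207) with the row as a term. The endothelial sums given beside Cd36 stand beside Fabp4 too, and their part in it was not tested.

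**Figure D5:**
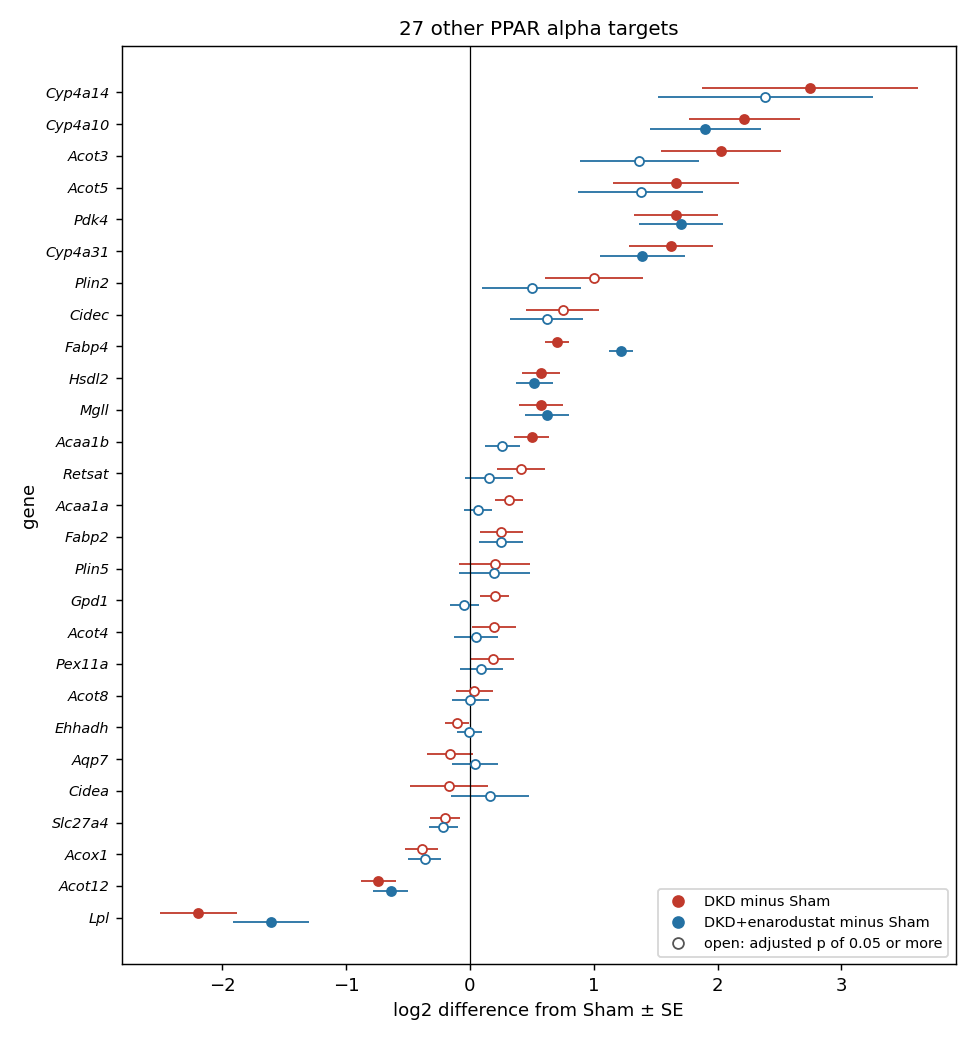
Log2 difference from Sham ± SE (x axis) of 27 PPAR alpha targets outside the 39 (y axis), in DKD (red) and in DKD+enarodustat (blue), filled where the adjusted p was under 0.05. Both comparisons use the same Sham arrays. Cyp4a14 stands highest and Lpl lowest in each.

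Of 18 further genes of mitochondrial fatty acid oxidation tested, 1 rose in DKD, 5 fell and 12 did not pass, beside 5.47% and 6.13% of all genes. In DKD+enarodustat against Sham 1 rose and 7 fell, beside 8.74% and 6.75%. In DKD against Sham the 4 with the largest change were Acsm3 and Acsm1, which activate medium-chain acids, Acad9 and Acot9. Acad9 is a dehydrogenase that also helps build complex I, and Acot9 is a thioesterase. In DKD they fell by 1.23, 0.59, 0.63 and 0.58 in that order of naming. There Acot9 did not pass without Sham 4 or with the replicate block (adjusted p = 0.0635). Acsm1 did not pass with the mean over its probes (−0.488, adjusted p = 0.0620). The median of these 18 in DKD against Sham was −0.0951, where the 39 had 0.253. Of 5 genes that set malonyl-CoA, the inhibitor of Cpt1, Acacb rose in DKD by 0.64 ± 0.15 (adjusted p = 0.00724) and Acaca fell by 0.45 ± 0.13 (adjusted p = 0.0238). The Acacb rise was 0.121 (adjusted p = 0.803) with the mean over its probes. The Acaca fall ended with the percentile over bright probes (adjusted p = 0.0719), the mean over probes (0.0631), the replicate block (0.0771) and the row term (0.0697). Of 17 nuclear receptors and cofactors, 1 rose in DKD, Rxrg, a partner of the PPARs, by 1.86 ± 0.32 (adjusted p = 0.000492; 0.539 and 0.0116 with normexp), and 16 did not pass. That is 1 of 17 upward, where 5.47% of all genes rose.

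The summed signal of 10 late proximal tubule markers was 396 to 487 in Sham, 272 to 412 in DKD and 303 to 434 in DKD+enarodustat, and 2 of the 10 rose and 3 fell in DKD. That of 10 early proximal tubule markers was 1070 to 1260, 1010 to 1220 and 897 to 1090, with 2 risers and 1 that fell in DKD. None of 6 tested markers of white fat, of 6 of brown fat or of 5 of skeletal muscle passed in DKD against Sham by limma, where 1, 1 and 0 had an unadjusted p under 0.05. Of all genes, 5.47% rose and 6.13% fell in DKD, shares that stand beside each of these marker counts. Other lists also held genes that passed in DKD. Of 6 collecting duct markers 4 rose, with sums of 20.6 to 27.1 in Sham, 31.0 to 39.4 in DKD and 27.0 to 39.1 in DKD+enarodustat. Of 5 thick ascending limb markers 2 rose and 2 fell, with sums of 241 to 280, 175 to 244 and 179 to 267. Of 5 red blood cell markers 3 fell, with sums of 300 to 757, 151 to 476 and 260 to 853. Of 4 distal convoluted tubule markers 1 rose, with sums of 45.5 to 65.8, 54.4 to 101 and 68.6 to 100. The part of a changed cell mixture in the differences of the 39 genes was not tested.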

How the data were processed

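Kidney RNA of 24 mice was measured on single-colour Agilent arrays. The submitters' processing notes name Agilent Feature Extraction 11.5.1.1 and limma, whose roles are not given in the sources used here. Scanner files, as deposited, hold intensity values per spot, background-subtracted and detrended by Feature Extraction per the file headers. The authors' deposited value table holds log2 values of 31409 probes. Its scale is not stated in the sources used here. A normexp correction of the median signals followed by quantile normalization gave back all but 299 of its 753816 values within 0.05, with column medians of 7.543 to 7.559.

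The log2 processed signal minus each array's 75th percentile over non-control spots was used, with the brightest probe per gene, named through RefSeq accessions (32994 of 56605 probes named, 23611 not). A gene entered the tests where its probe passed the scanner's background criterion on 6 or more arrays of 24, and 20 values marked as outliers were left out, none of them in a gene described. A linear model over all 24 arrays (group only) was fitted in limma 3.58.1 under R 4.3.3, with Benjamini-Hochberg adjustment over 17736 genes and a threshold of 0.05. On simulated data, DKD against Sham recovered 41 of 50 genes changed by 1 log2 unit. The simulation had 200 changed genes, independent normal noise with the same SD in each group, and no slide or row effect. The real arrays differ from it, with a median SD over all genes of 0.199 in Sham and 0.309 in DKD. Recovery in the real data may therefore differ. Arrays carry 6, 9 and 9 replicate numbers, as many as mice in the groups, and array number limits the precision.

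Replicate numbers were not treated as pairs in the main fit. Same-numbered arrays of different groups correlated in their deviations at a median of 0.0969, and 10 of 21 pairs exceeded 0.1. Arrays of different groups gave medians of 0.189 on the same slide and −0.0933 on other slides. As number and slide were not separated, this check cannot exclude pairing, and a replicate block was run as an alternative. Exact permutation tests used SciPy 1.17.1. The 39 genes, the other lists and the tests were chosen with earlier results of these data known. All 39 genes may be named, with full levels for the 16 that passed in a comparison and for Ppara, Ppargc1a and Cpt1a. Also named are the 4 largest changes that passed in each further list, and exceptions chosen after their values were seen: the cell markers and the gene pairs. One gene of a further list is not reported here. The alternatives covered scaling, background, filters, probe choice, slide, row, replicate block and the omission of each array. The row-restricted comparison and the rescaled correlations were chosen after seeing the data.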

Additional observations from a re-analysis of the deposited data

Results flagged for a closer look

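In 6 of 117 sets of values (39 genes in 3 groups), 1 array stood apart from the rest of its group by Dixon's criterion, where chance gives about 1 in 20. Creb3l3 was −0.107 in DKD 2, the highest of 9, and −2.47 in the next array. Cpt2 was 5.75 in DKD 3, the highest of 9, and 5.39 in the next. Slc25a20 was −1.42 in DKD 4, the lowest of 9, and −0.594 in the next. In Sham, Slc22a5 was 4.70 in Sham 2 (next 4.34), Vnn1 was 1.70 in Sham 2 (next 1.38) and Acsl5 was 0.897 in Sham 5 (next 0.664), each the highest of 6.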

How the results depend on the processing

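Against Sham, DKD had 13 of the 39 genes higher and 1 lower. With the row on the slide as a term these were 8 and 4, and with first-row arrays only (chosen after seeing the data) also 8 and 4. The higher count was 16 under quantile normalization and with the percentile over bright probes. The lower count was 2 with the percentile over bright probes, with normexp, in the deposited value table and with the mean over probes, and 4 with slide as a fixed or a random block. Leaving out 1 array at a time gave 9 to 15 higher and 1 to 4 lower. DKD+enarodustat against Sham had 8 higher and 3 lower, 0 and 0 with the row term, and 7 to 9 and 2 to 4 with 1 array left out. DKD+enarodustat against DKD had 0 and 0 under every alternative run. With the replicate block the counts were 10 and 1, 0 and 0, and 7 and 2. The cause of these moves was not tested. No called value changed direction.

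Over all genes, the 108 higher and 19 lower in DKD+enarodustat against DKD were 59 and 7 with the replicate block, 44 and 3 with only the 2 groups compared, 72 and 11 with no filter on dim probes, and 19 and 1 with the row term. Higher genes made up 85.0% of these calls, 73.9% under quantile normalization, 70.1% with normexp and 69.5% in the value table. Against Sham, the 1550 higher and 1198 lower were 537 and 352 with the row term. Normexp on the mean signals was not run, as that column is not used here. Dim probes (Creb3l3, Fabp1) bound what can be said of fold size.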
